A study of Mus musculus with 20 samples.

Results

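Hbb-b1, Pecam1 and Ighm are a gene of the red blood cell, a gene of the vessel wall and a gene of the antibody-making B cell, followed here in the brain of mice with a null mutation labelled NHE1. All probes of the array annotated to one of these 3 symbols alone were taken, which gave 1 probe per gene, among 7117 distinct single symbols on 15245 probes. The 3 genes were chosen by their log ratios in these arrays, so their values are a description and carry no p-value. All 3 probes passed the filter on missing values.

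The study used 20 mouse cDNA arrays of 2 channels each, on which amplified RNA of a brain region from an NHE1 null mutant was set against a wild-type pool of that region. Brain stem-diencephalon, cerebellum, cortex and hippocampus were studied, each with 3 arrays that held the null RNA in channel 1 and 2 swapped arrays that held it in channel 2. The labels give no strain, age or sex, do not say how many animals were pooled, and do not say if a new number stands for a new animal, so the errors cover only the spread of these samples, part of which can be technical. Values are log ratios read as log2, turned to null over wild type; neither the log's base nor which channel stands on top is stated, so the direction is likely only, and every sign turns if the order is the opposite. Each array gave 6793 to 13963 probes with a value, and precision is limited by how few arrays there are. One swapped array appears nearly unchanged both as cerebellum 1 and as brain stem-diencephalon 2 (r = 0.995 over 6748 probes, the next highest pair of arrays at 0.743); none of the 3 genes has a value on either copy.

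Hbb-b1 codes for an adult beta chain of haemoglobin, the oxygen carrier that fills erythrocytes. In brain tissue its RNA is known mainly from blood left in the vessels, although some neurons have also been described to make it. PECAM1 (CD31) is an adhesion molecule at the junctions between endothelial cells, found also on platelets and leukocytes, and Ighm codes for the constant region of the heavy chain of IgM, made by B cells, which are rare in healthy brain tissue. In such bulk RNA, fewer cells of a type and less RNA per cell cannot be told apart.

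Hbb-b1 was higher in the null mutants in all 4 regions by the fitted values. In cortex its log2 ratio was -0.10 on array 1, 0.59 on array 2, 0.76 on array 3 and 0.93 on the swapped array without a number. In hippocampus it was 0.23, 0.46 and 0.47 on arrays 1 to 3, and 0.20 and 1.004 on the swapped arrays 1 and 2. Of these 9 arrays, only cortex 1 lay below 0. In cerebellum the Hbb-b1 probe read 0.30, 0.65 and 0.70 on arrays 1 to 3 and 0.93 on the swapped array 2. In brain stem-diencephalon it read -0.03 and 0.45 on arrays 1 and 3 and 0.25 on the swapped array 1. Over all regions the probe was above 0 on 14 of 16 arrays with a value, with a median of 0.46.

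The fitted log2 ratio of Hbb-b1 was 0.71 ± 0.18 in cerebellum (SE, n = 3), 0.63 ± 0.15 in cortex (n = 4), 0.53 ± 0.17 in hippocampus (n = 3) and 0.36 ± 0.21 in brain stem-diencephalon (n = 2). Neighbours in this order differed by less than their SE, and the replicates of all 4 regions overlapped. Among 8319 features, which are genes or probes with no single gene name, the ratio ranked 42nd from the highest in cerebellum, 46th in cortex, 34th in hippocampus and 255th in brain stem-diencephalon. The mean over the regions was 0.56 ± 0.10 on the log2 scale, a 1.47-fold higher level in the null mutants, with 11 of 12 replicates above 0. Left without each replicate in turn, the value in brain stem-diencephalon lay between 0.11 and 0.67, so the size there rests on single replicates. Sizes also differed by the orientation of the channels. Channel 1 arrays averaged 0.42 in cortex, 0.55 in cerebellum, 0.38 in hippocampus and 0.21 in brain stem-diencephalon. The swapped arrays, not all of the same numbers, stood at 0.93, 0.93, 0.60 and 0.25 in that order. Plain replicate means, without the orientation term, were 0.55, 0.59, 0.47 and 0.28.

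**Figure D1:**
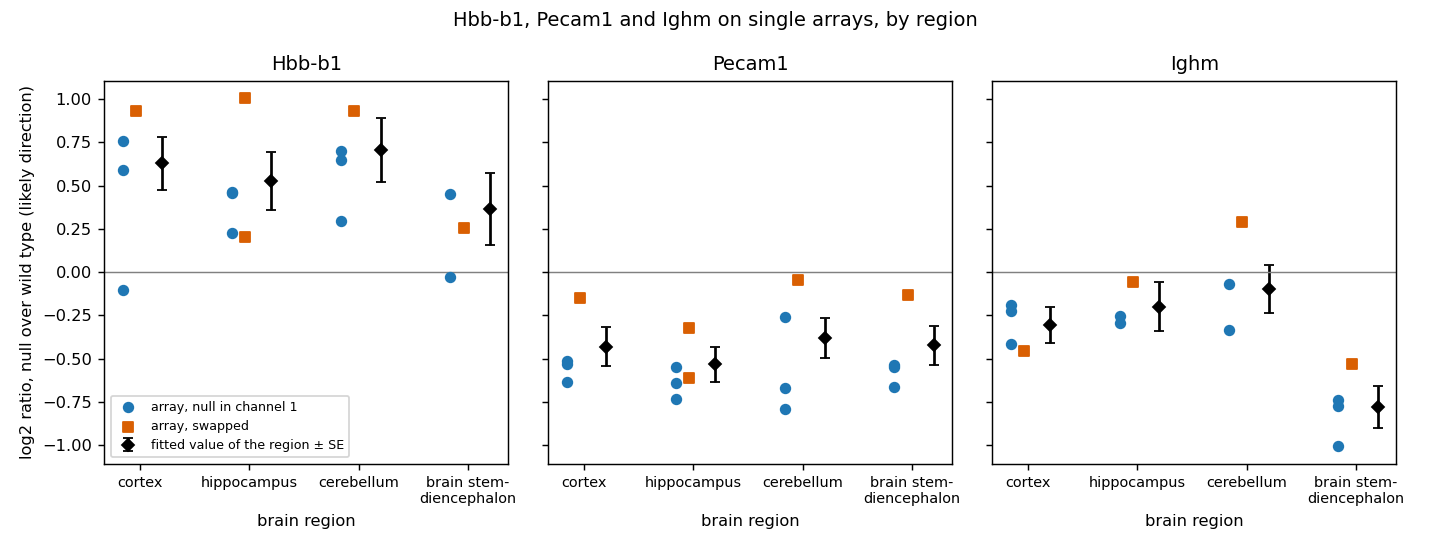
Log2 ratio of null over wild type (likely direction) of Hbb-b1, Pecam1 and Ighm in the 4 brain regions. Circles are arrays with the null RNA in channel 1, squares are swapped arrays, and diamonds with bars are the fitted values with their SE. Hbb-b1 lies above 0 on 14 of 16 arrays, Pecam1 below 0 on 17 of 17, and Ighm has its lowest values in brain stem-diencephalon.

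The level of Hbb-b1 followed the number in the array's label. On the 6 arrays numbered 1, the log2 ratio lay between -0.10 and 0.30, and on the 10 others between 0.45 and 1.004. The 2 ranges did not overlap, in either orientation of the channels. Such a gap, in either direction, was found for 3.06% of 5989 features with a value on all 6 arrays of number 1 and on at least 8 others. The Y-linked gene Eif2s3y, a translation initiation factor expressed from the male chromosome, split the same arrays: its log2 ratio was -1.36 to -0.44 on the 6 arrays of number 1 and 0.93 to 1.64 on 11 others. The labels give no sex for the mutants or the pool, and the part of this difference in the level of Hbb-b1 was not tested. On both copies of the repeated array Eif2s3y stood at 1.71, above its values on all other arrays, although one copy is labelled number 1. The highest alpha-globin probe of each copy gave the same value as Eif2s3y to all digits. It was 1.71197 on the copy labelled cerebellum and 1.71467 on the copy labelled brain stem-diencephalon, and the reason was not tested.

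Neither of the other genes split in this way. Pecam1 lay between -0.73 and -0.13 on the 6 arrays of number 1 and between -0.79 and -0.05 on 11 others. Ighm lay between -0.78 and -0.06 on the 6 arrays of number 1 and between -1.01 and 0.29 on 8 others. Both ranges overlapped over most of their width.

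**Figure D2:**
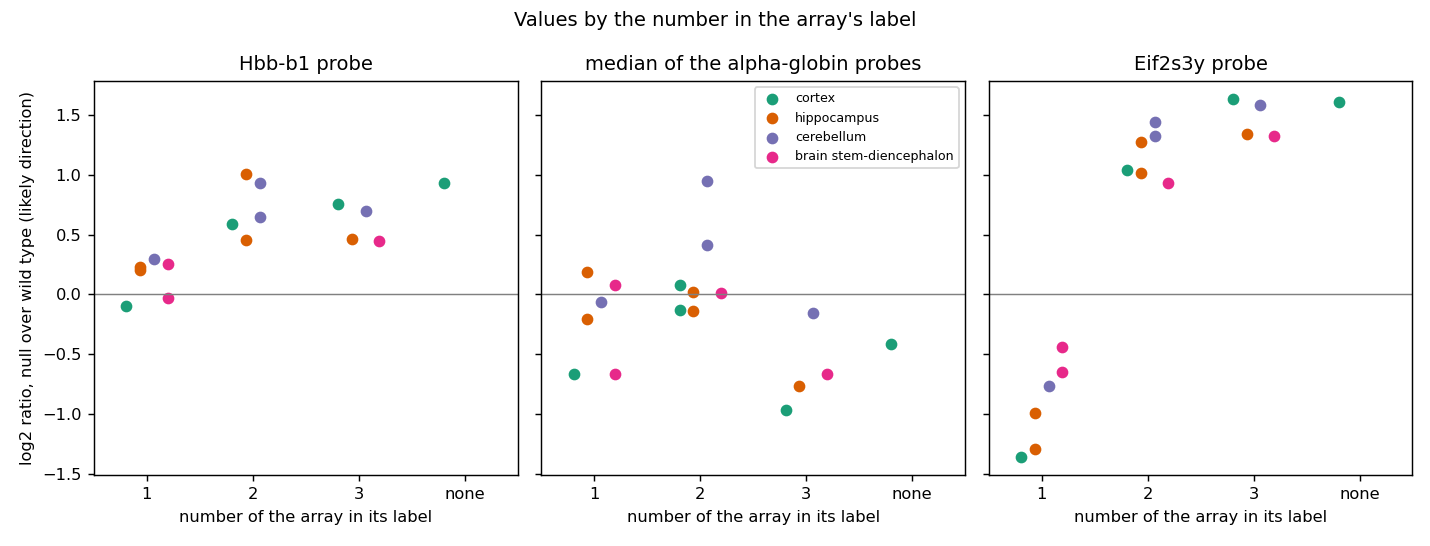
Log2 ratio of null over wild type (likely direction) by the number in the array's label, for the Hbb-b1 probe, the median of the alpha-globin probes and the Y-linked gene Eif2s3y, with each point 1 array, coloured by region and without the 2 copies of the repeated array. Hbb-b1 and Eif2s3y are both lower on every array of number 1 than on any other array, and the alpha-globin medians overlap.

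The single Hbb-b1 probe did not move with the other adult globin probes of the array. Haemoglobin of adult erythrocytes joins alpha and beta chains, and 18 further probes of adult globins are each annotated to several genes and name none of them: 16 to both alpha-globin genes, Hba-a1 and Hba-a2, together with H3f3a, and 2 to both Hbb-b1 and Hbb-b2. The Hbb-b1 probe lay above the median of these 18 probes on 16 of 16 arrays and above every one of them on 12. In cortex, where the fitted Hbb-b1 ratio was 0.63, all 15 alpha-globin probes that passed the filter were below 0 with a median of -0.41, and the 2 beta-globin probes stood at -0.41 and -0.37. In hippocampus, with Hbb-b1 at 0.53, 14 of the 15 alpha-globin probes were below 0 with a median of -0.12, and the beta-globin pair stood at -0.34 and -0.12. In cerebellum, with Hbb-b1 at 0.71, all 15 alpha-globin probes were fitted above 0 with a median of 0.47, and the beta-globin pair stood at 0.02 and 0.30. The repeated array, where Hbb-b1 has no value, had the highest alpha-globin median, 1.17 in both copies. Without it the cerebellum median was 0.35, and by replicate the alpha-globin medians were -0.066, 0.68 and -0.16, so only replicate 2 was above 0. In brain stem-diencephalon the alpha-globin median was 0.01 and the beta-globin pair stood at -0.15 and -0.03, against 0.36 for Hbb-b1. Replicate 2 of that region includes the other copy of the repeated array and has no Hbb-b1 value. Without that array the alpha-globin median of brain stem-diencephalon was -0.12, and by replicate -0.31, 0.014 and -0.67.

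The same separation is seen on single arrays. On cortex 3 the Hbb-b1 probe read 0.76 while the other globin probes ran from -1.54 to -0.67. On hippocampus 3 it read 0.47, and the others ran from -0.92 to -0.49. On the swapped cerebellum array 2 it read 0.93 and fell inside the others' range of 0.37 to 1.13. Over 11 or 12 shared replicates, the correlation of the Hbb-b1 probe with each of the 17 filtered globin probes had a median of 0.11 (-0.09 to 0.64), while these probes correlated with each other at a median of 0.89 (0.55 to 0.99 over 136 pairs); without the repeated array these medians were 0.21 and 0.90. Replicates share arrays and pools, and these are descriptions only. The label of a red blood cell gene rests on the annotation of 1 probe that the other adult globin probes did not follow, and which of them reads haemoglobin RNA was not tested.

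**Figure D3:**
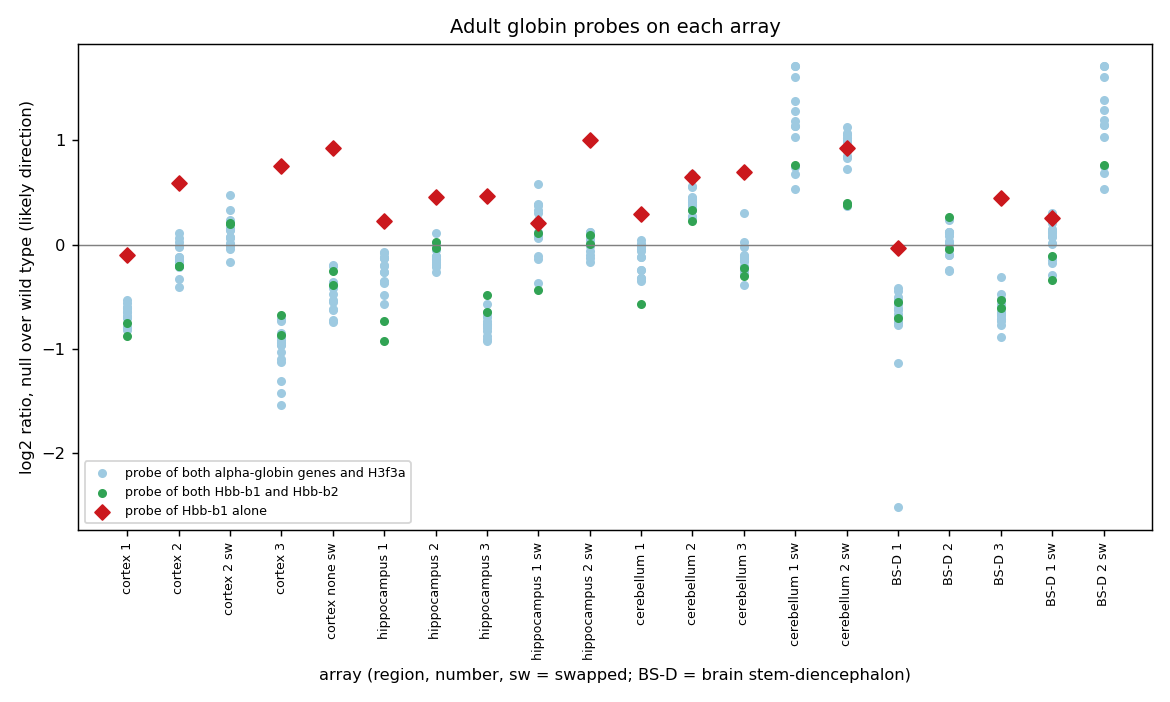
Log2 ratio of null over wild type (likely direction) of each adult globin probe on the 20 arrays. Pale dots are the probes of both alpha-globin genes and H3f3a, green dots the 2 probes of both Hbb-b1 and Hbb-b2, and red diamonds the probe of Hbb-b1 alone, which stands above every other globin probe on 12 of the 16 arrays where it has a value. The arrays at the highest alpha-globin values are the 2 copies of the repeated array.

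No promoter sequence was at hand for Hbb-b1, Pecam1 or Ighm. Globin promoters are shown instead for the adult alpha chain Hba-a1 and the embryonic beta-type chain Hbb-y. Globin genes are classic targets of erythroid factors. The sequences are the 250 bases before the gene start from RefSeq on GRCm38.p6, at chr11:32283422-32283671 on the plus strand for Hba-a1 and at chr7:103853208-103853457 on the minus strand for Hbb-y. Both strands were searched. Capitals mark the letters CACCC, bound by erythroid Krüppel-like factors, the box CCAAT, bound by the trimeric factor NF-Y among others, and the letters GATAA, bound by erythroid GATA factors. Among 32536 such windows of the RefSeq table, 52.1% hold CACCC, 33.8% CCAAT and 22.5% GATAA, so a match is a description and not a site.
Hba-a1: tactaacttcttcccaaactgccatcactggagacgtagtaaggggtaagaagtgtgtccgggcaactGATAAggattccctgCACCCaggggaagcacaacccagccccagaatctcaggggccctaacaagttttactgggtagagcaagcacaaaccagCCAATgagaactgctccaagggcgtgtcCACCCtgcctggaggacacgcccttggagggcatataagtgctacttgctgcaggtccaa
Hbb-y: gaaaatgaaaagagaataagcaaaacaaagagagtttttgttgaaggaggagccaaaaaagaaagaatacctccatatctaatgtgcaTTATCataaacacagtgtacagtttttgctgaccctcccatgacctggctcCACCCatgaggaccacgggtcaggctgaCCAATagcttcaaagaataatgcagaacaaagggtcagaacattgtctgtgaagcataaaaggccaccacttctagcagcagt
The Hba-a1 window holds 2 CACCC, 1 CCAAT and 1 GATAA, and the Hbb-y window holds 1 of each.

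Other genes of red blood cells gave few calls. Of the listed erythrocyte genes other than Hbb-b1, 6 passed the filter, and with limma's moderated test and Benjamini-Hochberg adjustment over all features 1 was called lower in cerebellum and none in the other regions. Of all features, 3.07% were called in cerebellum (1.57% lower), 4.12% in cortex (2.44% lower), 0.661% in hippocampus (0.505% lower) and 0.361% in brain stem-diencephalon (0.313% lower). In each region, 1 of the 6 genes had an unadjusted limma p below 0.05. The share of all features below that unadjusted level was not counted. Such counts, here and for the lists below, therefore have no background, and the shares called are for adjusted p. The called gene was Slc25a37 (mitoferrin), which carries iron into mitochondria, at -0.51 ± 0.13 in cerebellum (SE, n = 3, limma adjusted p = 0.0463, 0.136 without the repeated array). Hbb-y, the embryonic beta-type globin read by 3 probes, stood at -0.23 in cortex (limma adjusted p = 0.118) and between -0.05 and 0.08 in the other regions. Gata1, the erythroid transcription factor, stood between -0.03 and 0.27, and Bpgm, which makes the regulator of oxygen release 2,3-bisphosphoglycerate, between -0.17 and 0.06. Ermap, an adhesion protein of erythroid membranes, stood between -0.20 and -0.065, and Rhd, of the Rh blood group complex, between -0.12 and 0.23. The median of the 6 genes was 0.04 in brain stem-diencephalon, -0.15 in cortex, -0.0024 in cerebellum and -0.00077 in hippocampus, where the median of all features lay between -0.000067 and 0.012 over the regions.

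Of 12 measured genes of haem and iron handling, 1 was called higher in hippocampus, 1 higher and 1 lower (Slc25a37 again) in cerebellum, and none in cortex or brain stem-diencephalon; 5 in cortex and 2 in brain stem-diencephalon had an unadjusted limma p below 0.05. Of all features, 0.156% were called higher in hippocampus, 1.49% in cerebellum, 1.68% in cortex and 0.0481% in brain stem-diencephalon. Fth1, the heavy chain of the iron store ferritin, rose by 0.44 ± 0.09 in hippocampus (SE, n = 3, limma adjusted p = 0.032), a call kept under 16 of 25 alternatives. Fech, ferrochelatase, which puts iron into haem, rose by 0.42 ± 0.10 in cerebellum (n = 3, limma adjusted p = 0.037, 0.164 without the repeated array). In the mean of the 4 regions, where 26.1% of all features were called (13.2% higher), 4 of the 12 were higher and 2 lower. Fech stood at 0.38 ± 0.06 in that mean, with all 12 replicates above 0 (limma adjusted p = 0.00136). Tfrc, the transferrin receptor through which erythroid and other cells take up iron, stood at 0.22 ± 0.06 in the mean with all 13 replicates above 0 (limma adjusted p = 0.0129). Of these 6 mean calls, those of Fech and Slc25a37 alone held without cortex replicate 4, that of Fth1 was lost with the replicate number as a block (limma adjusted p = 0.0591) or without the repeated array (0.0728), and that of Slc25a37 was lost on channel 1 arrays alone (-0.02, adjusted p = 0.83).

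Pecam1 was lower in the null mutants on every array with a value. In cortex its log2 ratio was -0.53, -0.52 and -0.64 on arrays 1 to 3 and -0.15 on the swapped array 2. In hippocampus it was -0.73, -0.64 and -0.55 on arrays 1 to 3, and -0.32 and -0.61 on the swapped arrays 1 and 2. Hippocampus thus held the narrowest replicates, at -0.57 ± 0.05 (mean ± SD, n = 3, before the term for the channels). In cerebellum Pecam1 read -0.26, -0.79 and -0.67 on arrays 1 to 3 and -0.05 on the swapped array 2. In brain stem-diencephalon it read -0.66, -0.55 and -0.54 on arrays 1 to 3 and -0.13 on the swapped array 1. All 17 arrays lay below 0, with a median of -0.55; 0.911% of 8125 features with a value on at least 14 arrays were below 0 on each of them, and Pecam1 was chosen with these values known.

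The fitted log2 ratio of Pecam1 was -0.53 ± 0.10 in hippocampus, -0.43 ± 0.11 in cortex, -0.42 ± 0.11 in brain stem-diencephalon and -0.38 ± 0.11 in cerebellum (SE, n = 3 each). Neighbours in this order differed by less than or about 1 SE. In the mean of the regions it stood at -0.44 ± 0.07, a 1.36-fold lower level, the 119th lowest of 8319 features. The size depended on the orientation of the channels: the arrays with null RNA in channel 1 averaged between -0.64 and -0.56 in the 4 regions, against -0.47 on the 2 swapped arrays of hippocampus and -0.15, -0.13 and -0.05 on the single swapped arrays of cortex, brain stem-diencephalon and cerebellum. The direction was the same in both orientations.

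Other genes of endothelial cells were measured beside it. Of the listed endothelial genes other than Pecam1, 7 passed the filter, and 1 was called lower in cortex and none in the other regions, where 2 in brain stem-diencephalon, 2 in hippocampus and 1 in cerebellum had an unadjusted limma p below 0.05. The share called lower over all features was 2.44% in cortex and 0.313% to 1.57% in the other regions. Esam, another adhesion molecule of endothelial junctions, fell by 0.47 ± 0.08 in cortex (SE, n = 4, limma adjusted p = 0.0115), and the call was lost without cortex replicate 3 (adjusted p = 0.0509) or 4 (0.231). Cdh5, VE-cadherin, the main cadherin of endothelial junctions, stood at -0.75 ± 0.29 in cortex and between -0.52 and -0.40 in the other regions, with the lowest limma adjusted p at 0.117. Its cortex value ran from -1.02 to -0.35 with each replicate left out. Cdh5 was called in cortex under 2 of 24 alternatives. One was the fit without cortex replicate 1 (limma adjusted p = 0.0177), where 1689 of 8319 features were called in cortex. Slc2a1, the glucose transporter GLUT1 of the blood-brain barrier, stood between -0.29 and 0.16, Mcam, a junction adhesion molecule shared with pericytes, between -0.20 and 0.32, and Cd34, a sialomucin of endothelial and blood progenitor cells, between 0.01 and 0.19. In the mean of the regions, 3 of the 7 were called lower, namely Esam (-0.25 ± 0.05, limma adjusted p = 0.00256), Cdh5 (-0.53 ± 0.17, adjusted p = 0.0383, 0.0982 without the repeated array) and Podxl (-0.33 ± 0.08, adjusted p = 0.0132), against 12.9% of all features called lower. The mean call of Cdh5 was lost with the replicate number as a block (limma adjusted p = 0.0517), those of Cdh5 (0.247) and Podxl (0.109) without cortex replicate 4, and those of Esam (-0.09, adjusted p = 0.168) and Podxl (-0.19, 0.0777) on channel 1 arrays alone. The median of the 7 genes was -0.20 in hippocampus, -0.10 in cortex, -0.04 in cerebellum and 0.01 in brain stem-diencephalon, each nearer to 0 than Pecam1.

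**Figure D4:**
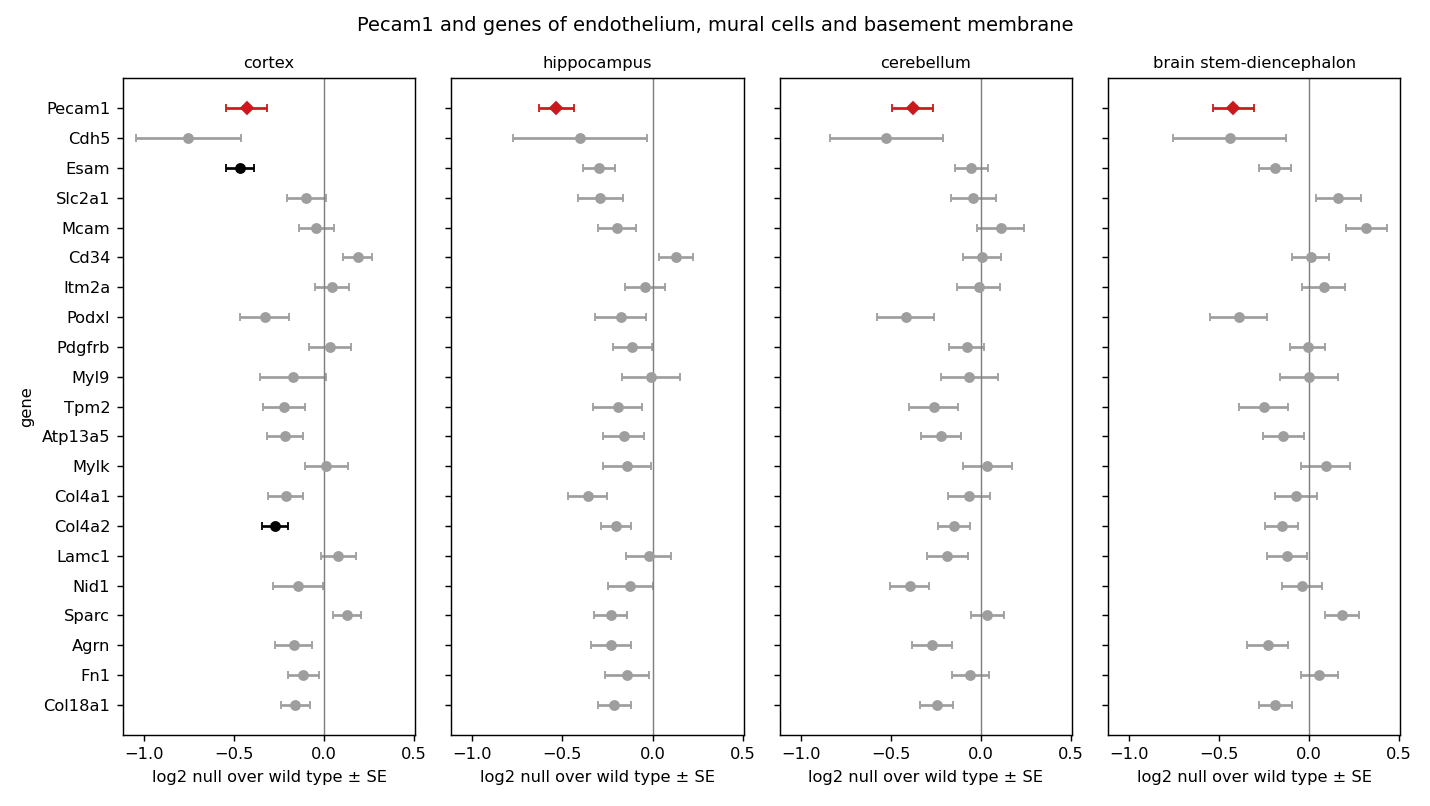
Fitted log2 ratio of null over wild type (likely direction) with its SE in each region for Pecam1 (red diamonds) and the measured genes of endothelium, of pericytes and vascular smooth muscle, and of the vascular basement membrane (circles, black where limma's adjusted p was below 0.05). Pecam1 lies between -0.53 and -0.38, and Esam and Col4a2 in cortex are the black points. Cd34 lies at 0.19 in cortex, 0.13 in hippocampus, and 0.01 ± 0.10 in both cerebellum and brain stem-diencephalon.

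Around the endothelium, the vessel wall held 8 measured basement membrane genes and 5 genes of pericytes and smooth muscle. Col4a2, a chain of the collagen IV network, fell by 0.27 ± 0.07 in cortex (SE, n = 4, limma adjusted p = 0.0473), a call kept under 4 of 24 alternatives. The share called lower in cortex over all features was 2.44%. No other gene of either list was called in a region by limma, with 4 basement membrane genes in hippocampus and 3 in cerebellum at an unadjusted p below 0.05. Those unadjusted counts have no share over all features beside them. All 8 basement membrane genes and all 5 mural genes were below 0 in hippocampus, with medians of -0.21 and -0.14, against 48.2% of all features. In the other regions 6 or 7 of the 8 and 3 or 4 of the 5 were below 0, against 47.2% to 50.0% of all features. There the mural median ran from -0.17 in cortex to -0.0072 in brain stem-diencephalon. In the mean of the regions, 3 of the 8 basement membrane genes and 2 of the 5 mural genes were called lower, against 12.9% of all features. The basement membrane genes were Col4a2 (-0.19 ± 0.05), the proteoglycan agrin (Agrn, -0.23 ± 0.06) and the collagen Col18a1 (-0.20 ± 0.05). The mural genes were Tpm2, a muscle tropomyosin, and Atp13a5, a pericyte-enriched ATPase. Without the repeated array the calls of Agrn (limma adjusted p = 0.08), Tpm2 (0.0883) and Atp13a5 (0.195) were lost. A replicate block took away the mean calls of Tpm2 (limma adjusted p = 0.0795) and Atp13a5 (0.115), which left no mural gene called. On channel 1 arrays alone Agrn (-0.02, limma adjusted p = 0.781), Col4a2 (-0.07, 0.223) and Atp13a5 (-0.026, 0.757) were not called in the mean, and without cortex replicate 4 none of the 3 basement membrane genes was (adjusted p of 0.055 to 0.148). Pdgfrb, the receptor that defines pericytes, stood between -0.11 and 0.03. Of PECAM1's intracellular partners, the phosphatase gene Ptpn11 stood at 0.29 ± 0.10 in brain stem-diencephalon (limma adjusted p = 0.213) and the kinase gene Fyn at 0.37 ± 0.14 in cerebellum (adjusted p = 0.152).

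Of 8 measured genes of angiogenic signalling, Jag1, a Notch ligand that acts in vessel growth among other tissues, was the only one called in single regions. It stood at -2.15 ± 0.23 in cerebellum (SE, n = 2), -2.05 ± 0.19 in hippocampus (n = 3), -2.01 ± 0.19 in brain stem-diencephalon (n = 3) and -0.91 ± 0.17 in cortex (n = 4), lower in each, with limma adjusted p between 0.000176 and 0.0219. The call in cortex was lost without cortex replicate 2, 3 or 4, with an adjusted p of up to 0.412. Jag1 was read by 1 probe. Over all features, the share called lower ran from 0.313% in brain stem-diencephalon to 2.44% in cortex.

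Ighm was lowest in brain stem-diencephalon. There its log2 ratio was -0.78, -0.74 and -1.01 on arrays 1 to 3 and -0.53 on the swapped array 1. In cortex it was -0.19, -0.22 and -0.41 on arrays 1 to 3 and -0.45 on the swapped array without a number. The 4 arrays of brain stem-diencephalon lay below all 4 of cortex, a gap whose share over all features was not counted. In hippocampus Ighm read -0.29 and -0.26 on arrays 1 and 2 and -0.06 on the swapped array 1. In cerebellum it read -0.34 and -0.07 on arrays 1 and 2 and 0.29 on the swapped array 2, the 1 array of 14 above 0.

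The fitted log2 ratio of Ighm was -0.78 ± 0.12 in brain stem-diencephalon (SE, n = 3), -0.31 ± 0.10 in cortex (n = 4), -0.20 ± 0.14 in hippocampus (n = 2) and -0.10 ± 0.14 in cerebellum (n = 2). Cortex, hippocampus and cerebellum, neighbours in this order, differed by about 1 SE or less. The replicates ran from -1.01 to -0.65 in brain stem-diencephalon and from -0.45 to -0.19 in cortex. How many of all features show such a gap was not counted, and Ighm was chosen with these values known. Ighm ranked 29th from the lowest of 8319 features in brain stem-diencephalon and 661st in cortex. In the mean of the regions it stood at -0.35 ± 0.08, a 1.27-fold lower level. Without cortex replicate 4, the Ighm value moved to -0.031 in cortex and to -0.093 in hippocampus. In cerebellum the sign was not stable: the value was 0.11 without the channel 1 arrays of number 1 and 0.29 on the swapped array alone.

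Of the B cell list, besides Ighm only Blnk, an adaptor of the B cell receptor, and Xbp1, a transcription factor of antibody-secreting cells that most other tissues express too, passed the filter. Neither was called in any region by limma, with 1 unadjusted p below 0.05 in cerebellum. In brain stem-diencephalon, where Ighm stood at -0.78, Blnk was at -0.23 ± 0.12 and Xbp1 at -0.16 ± 0.09 (n = 3 each, limma adjusted p of 0.407 and 0.465). Cd247, the zeta chain of the T cell receptor complex, stood between -0.44 and -0.19 in the regions. This only measured gene of the T cell list was called lower in their mean (-0.29 ± 0.07, limma adjusted p = 0.0113), as were 12.9% of all features. That call was lost without cortex replicate 4 (limma adjusted p = 0.0658), and its adjusted p was 0.0494 without the repeated array. None of the 3 measured genes of neutrophils, monocytes and platelets was called by limma in a region or in the mean, with 2 unadjusted p-values below 0.05 in cortex and 1 each in cerebellum and brain stem-diencephalon.

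Markers of other cells that the regions hold were read beside these genes. The 4 microglial genes C1qa, C1qb, C1qc and Laptm5 had medians of 0.41 in cerebellum, 0.12 in brain stem-diencephalon, -0.17 in hippocampus and -0.24 in cortex, with no call by limma in any of them and 3, 0, 1 and 2 unadjusted p-values below 0.05 in the same order. Of 8 genes of choroid plexus and meninges, Ttr, the transthyretin of choroid plexus, was called lower in cerebellum (limma adjusted p = 0.0216, 0.321 without the repeated array). Of the neuronal, astrocytic and oligodendrocytic genes, the neuronal tubulin gene Tubb3 was called lower in cortex and no other in any region. The share called lower over all features was 1.57% in cerebellum and 2.44% in cortex. The part of these cells in the values of Hbb-b1, Pecam1 and Ighm was not tested.

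The pattern over replicates of each gene was set against that of all genes with a symbol and a value in each of its replicates. Most like Hbb-b1 over 12 replicates, among 3748 genes, were Cdc23, a subunit of the anaphase-promoting complex (r = 0.98), Srp54a, of the signal recognition particle (0.96), Rbm7, an RNA-binding protein (0.94), Pus10 (0.94) and Ext1 (0.93). The most opposite were Vapa, an anchor of the endoplasmic reticulum (-0.96), Med13l (-0.93), Rbm6 (-0.93), Hnrnpu (-0.92) and Hnrnpm (-0.92). Most like Pecam1, over 12 replicates and 3905 genes, were Id1, an inhibitor of helix-loop-helix factors (0.83), Lamtor1, of the lysosomal Ragulator complex (0.80), Prl7d1 (0.77), Rpl27a (0.75) and Dkk1 (0.75). The most opposite to it were Scamp1, a membrane protein of secretory vesicles (-0.86), Matr3 (-0.82), Parp2 (-0.75), Psmd10 (-0.75) and Morf4l1 (-0.74). Most like Ighm, over 11 replicates and 3915 genes, were Thumpd1 (0.88), Polr1e (0.76), Csnk2a1 (0.72), Calb1 (0.69) and Fth1 (0.67), and the most opposite were Ankrd17 (-0.86), Atp11a (-0.81), Hnrnpd (-0.81), Pa2g4 (-0.81) and Mttp (-0.80). No other globin, endothelial or B cell gene of the lists was among the 5 most like or the 5 most opposite of any of the 3. Several could not appear, because globin probes annotated to several genes were not compared. Genes that lacked a value in any replicate of the member were left out too, such as Cdh5 for Hbb-b1 and Pecam1. The absence is therefore no result about these genes. Replicates of different regions share numbers, pools and the repeated array.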

How the data were processed

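The deposited table holds log ratios of the channels, which the authors had centred near 0 and which were read as log2 values; their base, direction and normalization steps are not stated in the labels or the table. Swapped arrays were multiplied by -1 and each array centred on its median. Of the probes, 9604 had a single symbol, 213 several and 5428 none. The filter asked for 3 arrays with a value in each region, 1 of them in each orientation, and 9701 probes passed. Probes of a gene were averaged (8319 features, 5255 of them genes). Arrays with the same region and number became 1 replicate (13 in all); the unnumbered cortex array stood alone, although it may repeat a numbered extract. Each feature was fitted with region terms plus orientation, and limma 3.58.1 in R 4.3.3 moderated the variances (Benjamini-Hochberg adjustment, threshold 0.05). Each ratio was tested against 0, which leaves out the spread of the wild-type pool. The fit was tested on simulated data.

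The 3 genes and all gene lists were chosen with earlier results of these data known. The rule for genes to name took, of each list, up to 4 measured genes with the smallest p in a region, every measured gene of the erythrocyte and B cell lists, main endothelial genes, and for Hbb-b1, Pecam1 and Ighm the 5 genes most like and most opposite; several it took from the other lists appear here only in their list's counts, and Cd34 and Agrn were added after their values were seen. Alternatives covered centring, scaling, filters, probe averaging, orientation, moderation, the repeated array, a replicate block and each replicate left out. A check of the mutated gene is not reported here.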

Additional observations from a re-analysis of the deposited data

Results flagged for a closer look

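Among 61 groups of arrays of the named genes examined for a single value far from the rest, 2 had one; chance flags about 1 in 20 groups. Slc6a13, a GABA transporter of meninges, read 0.667 on 1 array of brain stem-diencephalon, where the nearest of the other 3 read 0.265. Tubb3, a neuronal tubulin, read 0.117 on 1 array of cortex, where the nearest of the other 4 read -0.91. No array of Hbb-b1, Pecam1 or Ighm stood out in this way in the groups examined. Groups of fewer than 4 arrays were not examined. That left out Hbb-b1 in brain stem-diencephalon and Ighm in hippocampus and cerebellum, with 3 arrays each.

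Some genes moved one way on all arrays of one region with a value and the other way on all of another, a difference that was not tested. How many of all features do so was not counted. Many of the genes examined had been named for a small p in a region, which favours such pairs. The endothelial gene Mcam was lower in hippocampus than in cerebellum by a difference of -0.311 on the log2 scale and than in brain stem-diencephalon by -0.517. The microglial gene C1qb differed by -0.769 between cortex and cerebellum and by -0.893 between hippocampus and cerebellum. Ttr, of choroid plexus, differed by -1.38 between cortex and hippocampus. Hbb-b1, Pecam1 and Ighm showed no such pair of regions.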

How the results depend on the processing

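The count of features called in cortex, 343 with 40.8% of them higher, was 360 with 52.2% higher on values as deposited, 37 with arrays scaled to one spread (21.6% higher), 219 on the 2060 features with a value on all 20 arrays, 222 without the orientation term, 3 with a variance trend and robust moderation, 1557 without the channel 1 arrays of number 1, 129 on channel 1 arrays and 9 on swapped arrays alone. In hippocampus the count of 55 became 14 with the trend, 176 without the channel 1 arrays of number 1, 303 on channel 1 arrays and 9 on swapped arrays. In cerebellum the count of 255 became 142 after scaling, 20 with the trend, 48 without the repeated array, 1026 without the channel 1 arrays of number 1 and 24 on swapped arrays. In brain stem-diencephalon the count of 30 became 12 on complete features, 14 with the trend, 60 without the channel 1 arrays of number 1, 313 on channel 1 arrays and 10 on swapped arrays. In the mean of the regions the count of 2172 became 1407 without the repeated array and 785 on complete features. A replicate block on the number gave 1445 in the mean, 494 in cerebellum, 85 in hippocampus and 689 in cortex. Without each replicate in turn they ran from 944 to 2575 in the mean, 6 to 1689 in cortex, 20 to 456 in cerebellum, 13 to 67 in hippocampus and 17 to 38 in brain stem-diencephalon. With the plain mean of each region taken off, same-numbered replicates of different regions correlated at a median of 0.268 (-0.033 to 0.573 over 18 pairs, 14 of them above 0.1). Orientation was not taken off. Replicates of different numbers stood at a median of -0.127 over 45 pairs. All 12 of 12 numbered replicates were closest to one of their own number, a hint from the data and not the design. The labels name no pairs, and the main fit took the replicates as independent. If they are not, its SE and p-values in the mean are too small.

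Hbb-b1 stayed above 0 and Pecam1 below 0 in every region under every alternative that gave a value; none could be had on features with a value on all 20 arrays. On swapped arrays alone, mostly 1 per region, Pecam1 moved to -0.47 in hippocampus, -0.15 in cortex, -0.13 in brain stem-diencephalon and -0.048 in cerebellum, and on channel 1 arrays alone to -0.64 in hippocampus and -0.58 in brain stem-diencephalon. Ighm moved to -0.45 in cortex, -0.058 in hippocampus and -0.53 in brain stem-diencephalon on swapped arrays and to -0.27 in hippocampus on channel 1 arrays. In cerebellum Ighm turned to 0.11 without the channel 1 arrays of number 1 and to 0.29 on the swapped array. Without each replicate in turn, Hbb-b1 ran from 0.61 to 0.81 in cerebellum, 0.43 to 0.79 in cortex, 0.41 to 0.70 in hippocampus and 0.11 to 0.67 in brain stem-diencephalon, Pecam1 from -0.47 to -0.30, -0.53 to -0.39, -0.58 to -0.48 and -0.46 to -0.39 in the same order, and Ighm from -0.35 to 0.11, -0.35 to -0.031, -0.23 to -0.093 and -0.87 to -0.64. Of other named genes, the sign turned for Hbb-y in cortex (0.066, swapped arrays), Rhd in hippocampus (-0.0074, channel 1 arrays), Mylk in hippocampus (0.013, without hippocampus replicate 1), Col18a1 with a looser filter (0.0024 in cerebellum, 0.044 in the mean), Ndrg2 in cortex (0.063, channel 1 arrays) and Ttr in the mean (0.15, channel 1 arrays). The causes were not tested. Signal over background of the channels was not analysed here.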
